A study of Mus musculus with 4 samples.

Results

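The genes described here are the Rab GTPases, the largest family of small GTPases that direct membrane traffic, with attention to *Rab6b* and its paralogue *Rab6a*. Members were selected on their names alone: every gene symbol in the count tables made of Rab, a number and at most 1 letter from a to e. This gave 59 of the 55367 symbols. All 59 were found in GENCODE M21, on 18 chromosomes. *Rab6b* is singled out because of its difference between the genotypes in these same libraries. Its difference was thus chosen by its value and is given as a description, with no test.

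RNA was sequenced from sorted CD4+ T cells of the spleen of C57BL/6 mice in 4 libraries, 2 from WT mice (WT 1 and WT 2) and 2 from mice labelled *Satb1* conditional knockout (cKO 1 and cKO 2). The cells had no treatment. The series names Satb1 F/F mice, in which Cre recombinase can remove part of *Satb1*, with ThPOK-cre or with E8I-cre. The sample labels do not give the driver of each library, and the study's methods use *Thpok-cre* for CD4+ cells, where it acts once cells are committed to the CD4 lineage and so in conventional and regulatory T cells (Tregs) alike. The methods describe young adult mice of mixed sexes, with no age or sex for a library, and no source says that WT mice carried Cre or the floxed allele. The study describes the replicates as biological, though the labels tie no library to a mouse.

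SATB1 is an organiser of chromatin in the nucleus of T cells, and the comparison asks which transcripts differ when it is lost from CD4+ cells. The counts of *Satb1* were 5677 and 4390 for WT and 4958 and 3986 for the libraries labelled cKO (log2 fold change -0.05, adjusted p = 0.877, edgeR), so the whole-gene count does not check the labels. Whether reads of the deleted part fell was not analysed here. The X-linked *Xist* had 5447 and 4235 counts for WT against 9 and 6, and the Y-linked *Ddx3y* had 0 and 0 against 525 and 597. Genotype label and sex marker therefore cannot be told apart in any difference below. Libraries held 4495902 to 6555699 gene counts. Summed markers of T cells lay between 4842 and 5208 CPM (counts of a gene scaled to a common library size of 1e+06) in the 4 libraries, and *Cd4* between 1183 and 1279 CPM.

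Rab proteins are switches. They bind membranes in the GTP form, recruit effectors such as motors, tethers and coats, and are switched on by guanine nucleotide exchange factors (GEFs) and off by GTPase activating proteins (GAPs), while GDP dissociation inhibitors carry the GDP form through the cytosol. Each Rab marks certain membranes, so the family gives a vesicle its address. In T cells they serve the delivery of receptors to the surface, the recycling of the T cell receptor and the release of cytokines and granules. RAB6A is the common Golgi form, which acts in traffic from endosomes to the Golgi, within the Golgi and from it to the cell surface, and RAB6B is its close paralogue, best known from neurons.

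*Rab6a* and *Rab6b* are similar genes, so their coding sequences are shown to let a reader see how far short reads can tell them apart. *Rab6a* (ENSMUSG00000030704.14) lies on the plus strand at chr7:100607410-100641268 and *Rab6b* (ENSMUSG00000032549.7) on the plus strand at chr9:103111787-103185276 (GRCm38). Their longest coding sequences in GENCODE M21 have 624 bases each without the stop codon, of which 489 are identical (78.4%). The libraries were read to 50 bases. In 575 windows of 50 aligned coding bases the genes differed at 6 bases at the fewest, 10 at the median and 18 at the most, and no window was without a difference. The most alike window spans coding bases 97 to 146, in exons 2 and 3 of both transcripts (chr7:100626578-100626610 and chr7:100628404-100628420 for *Rab6a*, chr9:103140408-103140440 and chr9:103160820-103160836 for *Rab6b*). It follows on a line of its own for each gene, 5′ to 3′, with the bases that differ in capitals.
Rab6a, most alike window: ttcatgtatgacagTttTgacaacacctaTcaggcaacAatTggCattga
Rab6b, most alike window: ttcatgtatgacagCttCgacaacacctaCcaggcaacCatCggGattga

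The end of the coding sequence is shown because it encodes the variable tail by which Rab proteins are anchored and told apart. Coding bases 550 to 624, in exons 7 and 8 (chr7:100636749-100636761 and chr7:100639255-100639316 for *Rab6a*, chr9:103167160-103167172 and chr9:103181182-103181243 for *Rab6b*), differ at 15 bases, again in capitals.
Rab6a, last coding bases: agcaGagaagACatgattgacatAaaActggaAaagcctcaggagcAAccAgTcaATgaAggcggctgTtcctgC
Rab6b, last coding bases: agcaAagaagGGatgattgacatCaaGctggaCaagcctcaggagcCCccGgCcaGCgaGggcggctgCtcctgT

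Over whole transcripts, none of the 50-base words of *Rab6b* occurred in a transcript of any other gene on either strand. Of the words of *Rab6a*, 19.0% did, in *Mrpl48*, which overlaps it on the opposite strand, or in *Gm13082*. The longest stretch without a difference between the coding sequences was 14 bases.

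*Rab6b* was low in WT cells and reached the level of common Rabs in the libraries labelled cKO, while *Rab6a* stayed near its WT level. The WT libraries held 36 and 21 counts of *Rab6b* and those labelled cKO 401 and 274, or 5.51 and 4.71 against 76.4 and 58.2 CPM. The log2 fold change was 3.70, or 13.0-fold, and was 3.49 without cKO 1 and 3.88 without cKO 2. The libraries of each label lay close together and far from those of the other. *Rab6a* had 82.1 and 76.9 CPM in WT cells against 90.5 and 89.1 CPM. These did not overlap, yet the log2 fold change of 0.17 (95% interval -0.07 to 0.42) did not pass the test (adjusted p = 0.426, edgeR quasi-likelihood test with Benjamini-Hochberg adjustment). In bulk RNA, a larger share of cells with a transcript and more of it per cell cannot be told apart.

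The balance of the 2 genes can be compared only per length of exon, 3728 bases for *Rab6a* and 5031 for *Rab6b*. Of the *Rab6a* bases, 708 overlap exons of *Mrpl48* on the opposite strand. Reads there may not be assigned rightly, and the effect on the ratios and shares below was not tested. Per kb of exon, *Rab6a* exceeded *Rab6b* 20.1 and 22.0 times in the WT libraries and 1.60 and 2.06 times in those labelled cKO. *Rab6b* thus held 4.54% ± 0.278 (SD, n = 2) of the summed level per kb of the pair in WT cells and 35.6% ± 4.13 (SD, n = 2) in cells labelled cKO. The summed level itself was 22.3 ± 1.12 CPM per kb (SD, n = 2) and 37.5 ± 2.83 CPM per kb (SD, n = 2), 1.68 times higher. The mean of *Rab6b* went from 1.01 to 13.4 CPM per kb and that of *Rab6a* from 21.3 to 24.1. *Rab6a* remained the more abundant paralogue in every library.

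**Figure D1:**
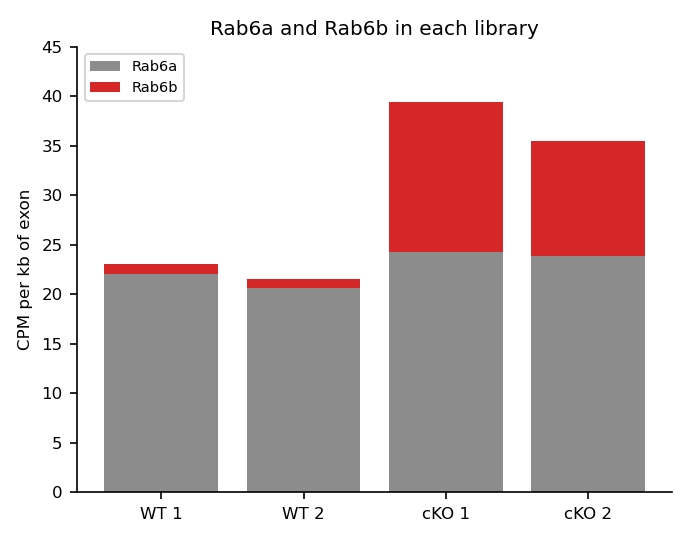
Level of *Rab6a* (grey) and *Rab6b* (red, stacked above it) in each library, in CPM per kb of exon, with 1 bar per library. The grey part is of similar height in the 4 bars, and the red part grows from a thin strip in WT 1 and WT 2 to 38.5% and 32.6% of the bar in cKO 1 and cKO 2.

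Among all 59 Rab genes ranked by CPM per kb, *Rab6b* stood at place 37 and 38 in the WT libraries and at place 16 and 20 in those labelled cKO. In WT cells its 1.01 ± 0.113 CPM per kb (SD, n = 2) lay beside *Rab31* (0.989 ± 0.264) and *Rab43* (0.944 ± 0.0738), from which it did not differ by more than their spread. In cells labelled cKO its 13.4 ± 2.55 CPM per kb lay beside *Rab11a* (13.9 ± 0.824) and *Rab29* (11.8 ± 1.51), again within the spread. Of the 12403 genes that could be tested, 18 had a higher log2 fold change, and on the autosomes 13 of 11816 did. Of autosomal genes with an average level at least that of *Rab6b*, *St6galnac2* alone had a higher log2 fold change. Its counts of 30, 23, 900 and 17 show that this came from cKO 1 only. The Y-linked *Ddx3y*, also at a higher average level than *Rab6b*, had a log2 fold change of 12.2.

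Markers of other cells also moved with the genotype label, and their part in the *Rab6b* difference was not tested. The 9 listed markers of Tregs summed to 615 and 550 CPM in the WT libraries and 1016 and 1220 CPM in those labelled cKO. All 9 were tested and 4 were called higher, beside 2.35% of all tested genes. *Foxp3*, the defining factor of Tregs, was among the 4, at 142 and 121 against 405 and 547 CPM. Without *Foxp3* the rest of the listed markers summed to 473 and 430 CPM in WT cells against 610 and 673. *Capg* of this list lay the other way, at 65.3 and 66.8 against 52.2 and 49.7 CPM, and was not called.

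The 10 myeloid markers summed to 32.3 and 39.0 CPM in WT cells against 107 and 65.0. Of 9 tested 4 were called higher, beside 2.35% of all tested genes. Of these 4, *S100a9* (0 and 1 counts against 51 and 24) and *Ltf* (0 and 1 against 36 and 29) passed the low-count filter only through the libraries labelled cKO. They are high there, so their calls are partly set by the filter. *Itgam* of this list lay the other way, at 2.14 and 2.24 against 1.33 and 1.06 CPM, and was not called. It passed the filter only through the WT libraries. The 8 B cell markers summed to 14.1 and 14.8 CPM in the WT libraries and to 56.6 and 23.6 CPM in cKO 1 and cKO 2. Of these 3 were tested and *Pax5* was called, with 5 and 4 counts against 53 and 15, and it too passed the filter only through the libraries labelled cKO. The 5 platelet markers summed to 2.29 and 1.57 CPM in the WT libraries against 4.95 and 3.83 CPM. Of these *Itga2b* alone was tested and was not called, and *Gp1bb* was at 0 in every library. Markers of NK cells summed to 47.0 and 37.0 CPM in WT libraries against 14.9 and 18.3 CPM, and those of CD8 T cells to 47.7 and 58.5 against 34.3 and 26.8 CPM. *Eomes* of the former fell. Of the latter *Cd8b1* fell, from 42.4 and 52.0 to 27.4 and 22.5 CPM, while *Cd8a* overlapped, at 5.35 and 6.50 against 6.86 and 4.25 CPM.

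The other Rab genes differed little between the genotypes. Of the 59 members, 39 passed a filter on low counts and were tested, and 20 were not. Over all 12403 tested genes, 533 or 4.30% were called at an adjusted p under 0.05, 291 (2.35%) of them with more and 242 (1.95%) with less RNA in the libraries labelled cKO. *Rab6b* was among those called higher, which its choice fixed. Of the other 38 tested members 0 were called by edgeR, 0 by DESeq2, and 4 had an unadjusted p under 0.05, or 10.5% beside 19.1% of all tested genes.

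The 38 log2 fold changes ran from -0.70 for *Rab3a* to 1.0 for *Rab43*, with a median of 0.06, and 36 were smaller than 0.5 in size. Of their 95% intervals, 34 lay wholly within a 2-fold change in either direction. Of these members 25 had a log2 fold change above 0, or 65.8%, beside 49.8% of all tested genes. Members whose 2 genotypes did not overlap numbered 15 of 38, or 39.5%, 11 of them higher and 4 lower, beside 50.3% of all tested genes. The count of calls among the 38 rested on the libraries used. Without cKO 1 it was 3, with *Rab27a* and *Rab8b* higher and *Rab8a* lower, and without cKO 2 it was 2, *Rab27a* and *Rab43*, both higher. Over all genes those fits called 1313 and 1583, and the fit without WT 2 called 174.

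**Figure D2:**
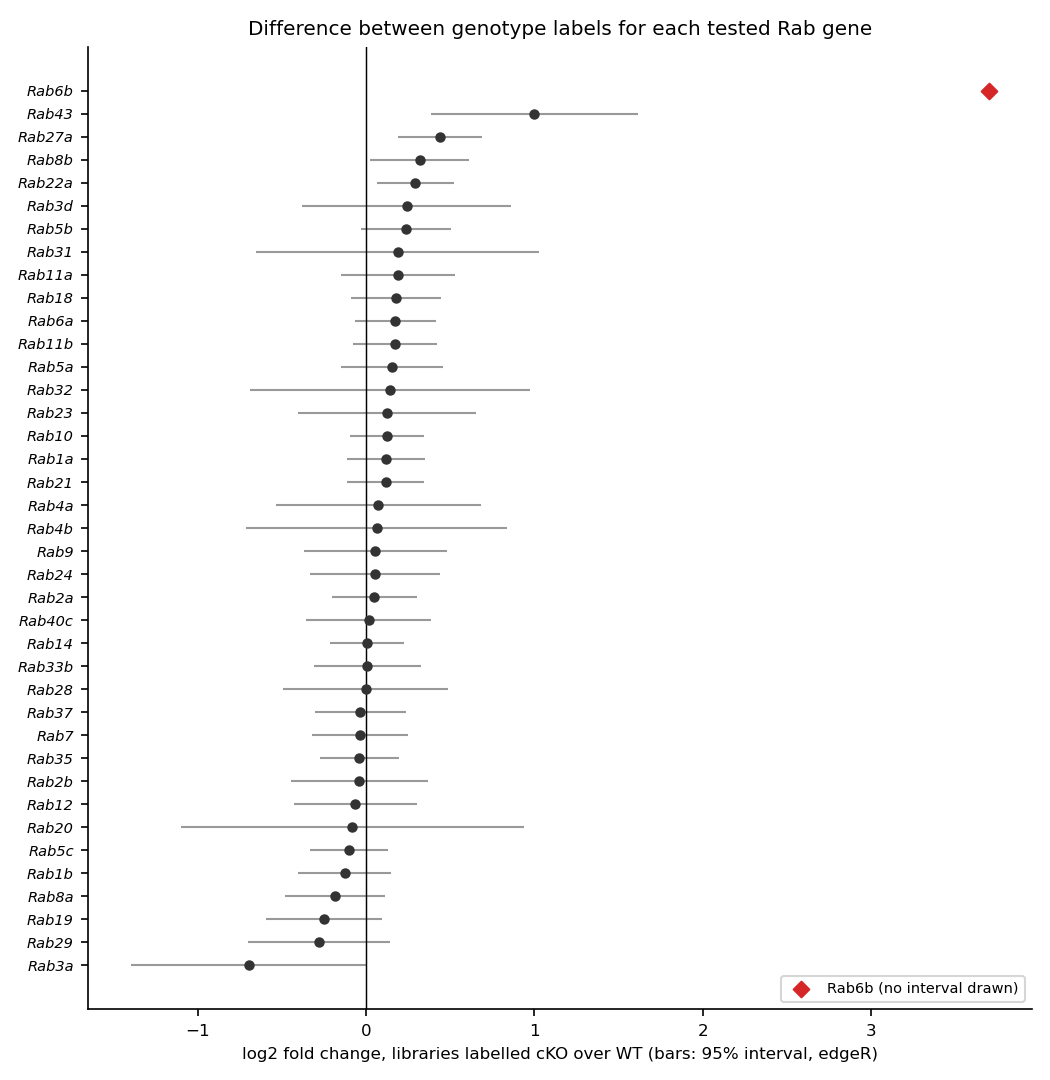
Log2 fold change of each of the 39 tested Rab genes, libraries labelled cKO over WT, ordered by size, with 95% intervals from edgeR as bars for all but *Rab6b*, which is drawn as a red diamond. All circles but *Rab43* and *Rab3a* lie within 0.5 of the line at 0, and the diamond lies at 3.70.

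**Figure D3:**
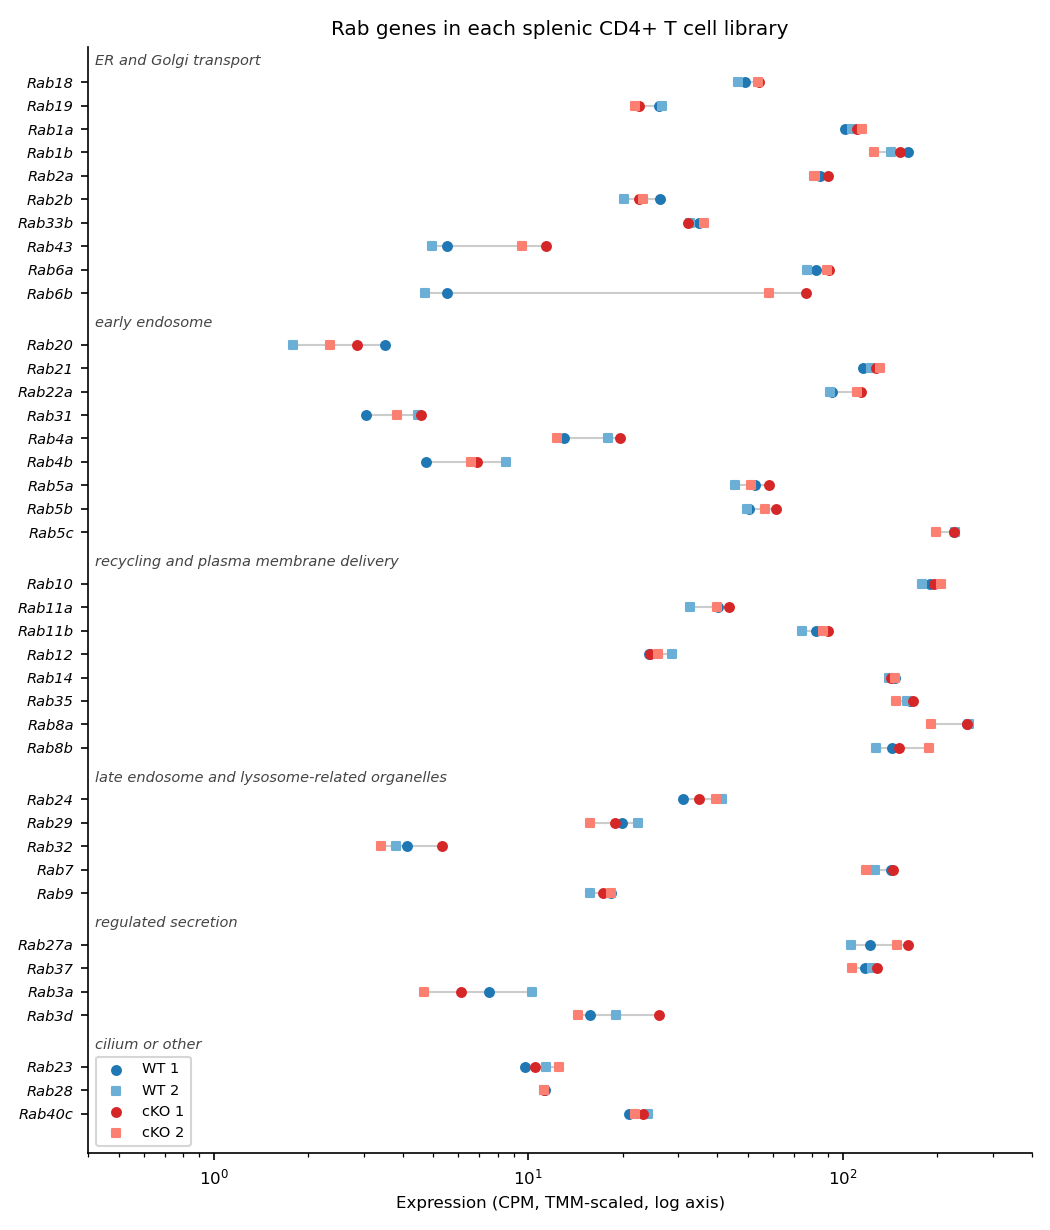
CPM of the 39 tested Rab genes in each library on a log axis, grouped by the membrane they are best known to serve, with WT libraries in blue, libraries labelled cKO in red, and circles and squares for replicates 1 and 2. The 4 points of most genes fall on each other, and the red points of *Rab6b* lie far to the right of its blue ones.

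Rabs of the endoplasmic reticulum and the Golgi made up 16 members, of which 10 were tested. Without *Rab6b*, 6 were higher and 3 lower, with a median log2 fold change of 0.05 and none called. *Rab1a* and *Rab1b* carry vesicles from the endoplasmic reticulum to the Golgi. *Rab1a* had 102 and 107 CPM in WT cells against 111 and 115, and *Rab1b* 161 and 143 against 152 and 126. *Rab2a*, which acts between the same compartments, had 84.9 and 80.9 against 90.1 and 81.4 CPM, and *Rab2b* 26.3 and 20.2 against 22.5 and 23.2 CPM. Apart from *Rab1a*, whose values did not overlap, the genotypes of these 4 genes overlapped. For *Rab2b*, 57.0% of 50-base words are shared with other genes, mainly *Gm43766* and *Tox4*, which overlap it on the opposite strand.

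*Rab43* and *Rab19* are related Golgi Rabs. For *Rab43* the WT libraries held 36 and 22 counts against 60 and 45, or 5.51 and 4.93 against 11.4 and 9.57 CPM, with no overlap (log2 fold change 1.0, 95% interval 0.39 to 1.61, adjusted p = 0.081). *Rab19* had 26.2 and 26.7 against 22.5 and 21.9 CPM (log2 fold change -0.25, adjusted p = 0.421). Of the 50-base words of *Rab43*, 74.5% also occur in *Gm45140*, a transcript that runs through it on the same strand and had 0, 0, 2 and 1 counts, so reads that fall on both may be missing from the *Rab43* count.

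Early endosome Rabs were represented by 10 members, of which 9 were tested, 7 of them higher and 2 lower, with a median log2 fold change of 0.12 and none called. RAB5 proteins govern the fusion of early endosomes. *Rab5c* had the highest level of any Rab per kb of exon in WT cells, 104 ± 0.626 CPM per kb (SD, n = 2). It had 226 and 228 CPM in WT cells against 226 and 198, *Rab5b* 50.3 and 49.7 against 61.4 and 56.8, and *Rab5a* 52.5 and 45.5 against 58.1 and 51.2. The values of *Rab5b* and *Rab5c* did not overlap between genotypes, in opposite directions, with cKO 1 only just below WT 1 for *Rab5c*, with adjusted p of 0.314 and 0.653.

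*Rab22a*, which sorts cargo at early endosomes, had 92.7 and 91.2 CPM in WT cells against 114 and 111 (log2 fold change 0.29, 95% interval 0.06 to 0.52, adjusted p = 0.158). *Rab31*, its paralogue, was low, at 3.06 and 4.48 against 4.57 and 3.83 CPM. *Rab21*, which binds integrins, had 116 and 123 against 127 and 132 CPM, and its relative *Rab20* 3.52 and 1.79 against 2.86 and 2.34 CPM. *Rab4a* and *Rab4b*, which return cargo from early endosomes to the surface, had 13.0 and 17.9 against 19.6 and 12.3 CPM, and 4.74 and 8.51 against 6.86 and 6.59 CPM. Of these 6 genes, the genotypes of *Rab22a* and *Rab21* alone did not overlap. For *Rab4b*, 58.1% of 50-base words are shared with other genes, among them the overlapping *Gm21983*.

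Of the 11 Rabs of recycling and delivery to the plasma membrane, 8 were tested, 5 higher and 3 lower, with a median log2 fold change of 0.07 and none called. *Rab8a* and *Rab8b*, which carry cargo to the surface, moved apart in cKO 2. *Rab8a* had 249 and 251 CPM in WT cells against 249 and 191, and *Rab8b* 144 and 127 against 151 and 189 CPM (log2 fold change 0.32, 95% interval 0.02 to 0.61, adjusted p = 0.227). The value of *Rab8a* in cKO 1 lay between those of the WT libraries, and that of cKO 2 alone stood apart. *Rab11a* and *Rab11b*, which define the recycling endosome, had 40.1 and 32.7 against 43.4 and 40 CPM and 82.1 and 74.4 against 89.8 and 86.7 CPM, of which *Rab11b* alone did not overlap. *Rab35*, which also acts in fast recycling, had 164 and 160 against 167 and 148 CPM. Per kb of exon *Rab35* was the third Rab in WT cells, at 57.4 ± 0.906 CPM per kb (SD, n = 2), behind *Rab1b* at 66.9 ± 5.59, and its range did not meet those of its neighbours in that order, *Rab1b* and *Rab8a* (53.5 ± 0.360).

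The remaining groups were late endosome and lysosome-related organelles, regulated secretion, and cilium or other. Of 8 Rabs of late endosomes and lysosome-related organelles, 5 were tested and none called, with log2 fold changes from -0.28 to 0.14. They include *Rab7*, the Rab of late endosomes. Of 5 Rabs of the cilium or of other roles 3 were tested, with log2 fold changes from 0.00 to 0.12 and none called.

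Of 9 Rabs of regulated secretion 4 were tested, 2 higher and 2 lower, and none called. *Rab27a*, which docks cytotoxic granules and other secretory lysosomes, had 122 and 107 CPM in WT cells against 161 and 149, with no overlap (log2 fold change 0.44, 95% interval 0.19 to 0.69). It came nearest to the threshold of the other 38 members (adjusted p = 0.064). *Rab3a* and *Rab3d* serve the docking of secretory vesicles. For *Rab3a* the WT libraries held 49 and 46 counts against 32 and 22, or 7.49 and 10.3 against 6.10 and 4.68 CPM (log2 fold change -0.70, adjusted p = 0.262), and *Rab3d* 15.8 and 19.0 against 26.1 and 14.5 CPM. The genotypes did not overlap for *Rab3a* and overlapped for *Rab3d*.

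The 20 members that were not tested held at most 7 counts in any library, reached by *Rab39b* in cKO 2. For 5 of them, *Rab3b*, *Rab3c*, *Rab9b*, *Rab17* and *Rab40b*, no library held a count. In all, 14 were at or under 3 counts in every library, the floor used here, and their differences were not detectable at this depth. They include *Rab3b* and *Rab3c*, best known from neurons, and *Rab17* and *Rab25*, best known from epithelia. For *Rab39b*, the WT libraries held 2 and 2 counts and those labelled cKO 6 and 7. It is 1 of 4 members on the X chromosome, of which *Rab9* alone was tested.

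Within a library, the ratio of a pair of paralogues is free of the scaling between libraries, apart from the 0.5 CPM added to each gene. Of 25 listed pairs, 13 had both genes tested. The log2 ratio of *Rab6b* to *Rab6a* was 3.41 higher in the libraries labelled cKO, with a pooled SD within genotypes of 0.191. Of the other 12 pairs, the largest change in size was 1.19 and the median 0.192. An exact two-sided permutation test over 4 libraries cannot give a p under 0.33, so it could call no pair. That value was reached by 5 of the 12 pairs, with p = 0.8 in the exact test after Benjamini-Hochberg adjustment over the 12. In these, both libraries labelled cKO lay above both WT libraries. The difference of mean log2 ratios was 1.19 for *Rab43* to *Rab19*, 0.83 for *Rab3d* to *Rab3a* and 0.51 for *Rab8b* to *Rab8a*. It was 0.34 for *Rab5b* to *Rab5c* and 0.26 for *Rab5a* to *Rab5c*. With a library left out, it ran from 1.08 to 1.29, from 0.59 to 1.07 and from 0.16 to 0.87 for the first 3 pairs. Both *Rab5* pairs kept their direction. For *Rab8b* to *Rab8a* it was 0.16 without cKO 2 and 0.87 without cKO 1.

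**Figure D4:**
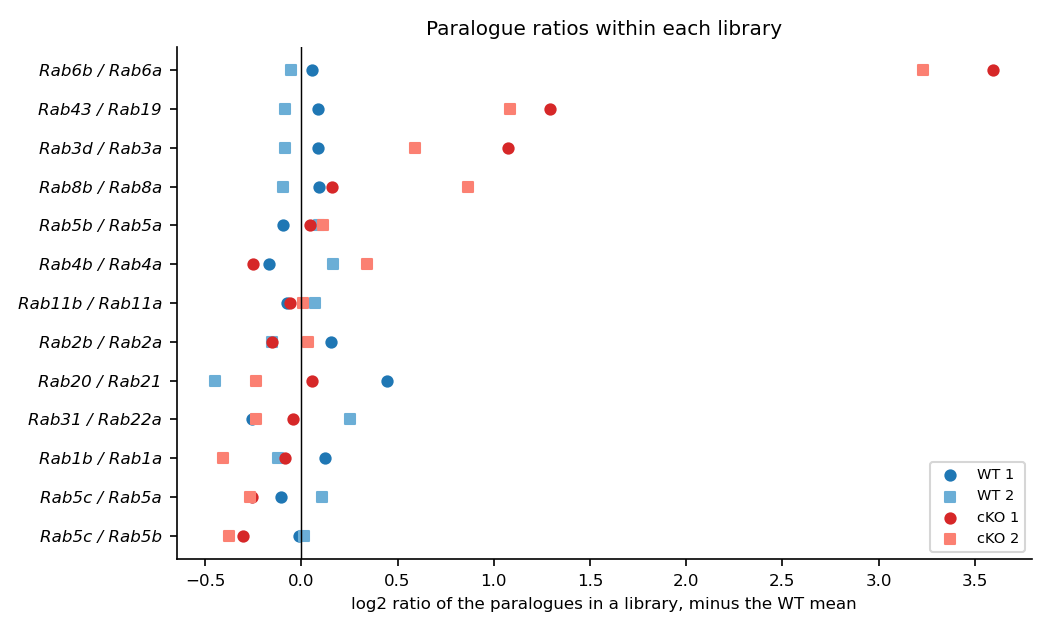
Log2 ratio of the paralogues of 13 pairs in each library, less its mean over WT 1 and WT 2, with WT libraries in blue and libraries labelled cKO in red. The red points of *Rab6b* / *Rab6a* lie beyond 3, and every point of the other 12 pairs lies under 1.5.

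The identity of aligned coding bases over the 25 pairs ran from 64.3% for *Rab7* and *Rab7b* to 79.2% for *Rab8a* and *Rab8b*, with *Rab6a* and *Rab6b* next below the latter at 78.4%, and no pair shared a word of 50 bases.

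The CpG content of start sites was read from RefSeq. RefSeq windows (GRCm38.p6) of 250 bases before a start and 50 after it were given for 48 of the 59 members. Over the 250 bases, the 42 windows of tested members had a median of 18 CpG (range 2 to 42), the 18 windows of untested members 8, and the 32851 windows of all genes 6. The window of *Rab6a* held 24 CpG and that of *Rab6b* 40, more than 98.7% of all windows. GENCODE M21 starts *Rab6b* upstream of that window, so part of it can be transcribed.

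Genes near *Rab6b* were read from the same fit. Within 500000 bases of its start on chromosome 9, 32 other symbols were listed and 7 were tested. Of these 0 were called by edgeR, beside 4.30% of all tested genes, and 4 had an unadjusted p under 0.05, beside 19.1%. By the same test, the lowest adjusted p was 0.059, for *Topbp1*. Nearest among the tested genes was *Srprb*, a receptor subunit of the endoplasmic reticulum, with 51.9 and 50.4 CPM in WT cells against 69.6 and 63.1 (log2 fold change 0.38, SE 0.12). *Trf*, which encodes transferrin, had 35 and 24 counts against 81 and 28 (log2 fold change 1.01, SE 0.42), so its value rested on cKO 1.

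**Figure D5:**
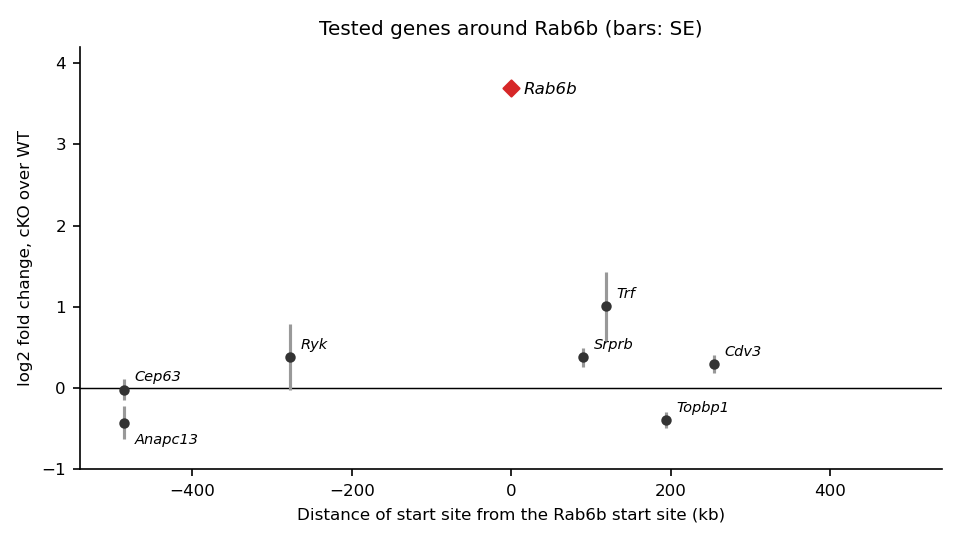
Log2 fold change, cKO over WT, of the 7 tested genes within 500000 bases of the *Rab6b* start, by distance of their start sites in kb, with SE bars, and *Rab6b* as a red diamond without a bar. The 7 circles lie between -0.43 and 1.01, well below the diamond at 3.70.

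Regulators and effectors of Rabs were read from lists of 146 genes, of which 145 were in the files and 124 were tested. Of these 9 were called, or 7.26% beside 4.30% of all tested genes, 5 higher (*Rab11fip5* among them only by its libraries labelled cKO passing the filter) and 4 lower, with a median log2 fold change of 0.08. Of 8 genes that cycle Rabs between membrane and cytosol, all tested, none passed. Of 46 tested exchange factors *Rab3ip* rose and *Dennd2d* fell, and of 34 tested GAPs *Usp6nl* and *Tbc1d4* rose. Of 30 tested effectors *Rab11fip5* and *Sytl2* rose and *Sytl1* and *Appl2* fell, and of 10 tested partners of Rab6 *Kif20a* fell. The number of calls was 1 without WT 2 (*Sytl1*), 18 without cKO 1, 17 without cKO 2 and 6 by DESeq2. Of the 5 rises *Sytl2* alone was also called by DESeq2, and *Rab11fip5*, *Tbc1d4*, *Usp6nl* and *Rab3ip* were not (adjusted p from 0.0519 to 0.0771). All 4 falls were also called by it.

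*Sytl1* and *Sytl2* encode synaptotagmin-like proteins that bind Rab27 and tether secretory vesicles. *Sytl1* fell from 35.6 and 40.6 to 12.6 and 14.2 CPM (log2 fold change -1.5, SE 0.17, adjusted p = 0.00224), and *Sytl2* rose from 34.3 and 37.9 to 59.5 and 72.5 CPM (0.87, SE 0.14, adjusted p = 0.0122). In neither did the genotypes overlap. *Appl2*, a Rab5 effector, fell from 32.4 and 40.1 to 17.5 and 18.1 CPM (-1.02, SE 0.17, adjusted p = 0.0127).

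*Dennd2d*, of the DENN family of exchange factors, fell from 325 and 347 to 220 and 227 CPM (-0.59, adjusted p = 0.0124). *Rab3ip*, the exchange factor of Rab8, rose from 71.4 and 69.9 to 103 and 97.6 CPM (0.51, adjusted p = 0.0345), and was not called without WT 1 (adjusted p = 0.145). *Usp6nl*, a GAP of Rab5, rose from 34.6 and 28.9 to 49.5 and 51.7 CPM (0.66, adjusted p = 0.036), and *Tbc1d4*, a GAP of the Rabs of glucose transporter vesicles, from 77.5 and 67.7 to 103 and 108 CPM (0.53, adjusted p = 0.037). *Rab11fip5*, a partner of Rab11, rose from 10 and 1 counts to 28 and 26 (2.44, SE 0.55, adjusted p = 0.0455), with few counts behind it. It passed the low-count filter only through the libraries labelled cKO, where it is high, so its call is partly set by the filter. Its log2 fold change was 4.45 without WT 1 and 1.81 without WT 2, where it was not called (adjusted p = 0.192).

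Of the Rab6 partners, *Kif20a*, a kinesin that binds Rab6 at the Golgi and also serves cell division, fell from 33.7 and 29.8 to 13.0 and 19.8 CPM (log2 fold change -0.97, SE 0.21, adjusted p = 0.0387). It was not called without WT 1 (adjusted p = 0.0648) or without WT 2 (adjusted p = 0.109). The other 9 tested partners were not called. *Ric1* and *Rgp1*, which together form the exchange factor of Rab6A, had 58.3 and 61.2 against 70.7 and 70.1 CPM and 118 and 110 against 104 and 105 CPM, with no overlap and in opposite directions. *Bicd2*, which links Rab6 to dynein, had 86.4 and 91.0 against 89.8 and 98.8 CPM, and *Mical3*, which works with Rab6 in vesicle fusion, 35.5 and 32.5 against 45.9 and 46.3 CPM (log2 fold change 0.44, adjusted p = 0.108).

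Adjusted p for *Rabgap1*, *Dennd5a*, *Gcc2*, *Erc1* and *Tmf1*, the GAP candidate, a DENN protein and tethers of the same list, lay between 0.223 and 0.889, with log2 fold changes from -0.16 to 0.30. The values of *Dennd5a* were 43.7 and 49.1 against 56.8 and 57.4 CPM. Those of *Tmf1*, a Golgi tether, were 66.4 and 72.6 against 79.1 and 86.5 CPM. *Erc1* had 25.7 and 26.4 against 32.6 and 28.3 CPM, and these 3 genes were higher in both libraries labelled cKO than in both WT libraries.

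*Rabgap1* had 69.4 and 64.5 against 68.6 and 61.6 CPM and *Gcc2*, a golgin of the trans-Golgi, 46 and 67.7 against 48.4 and 52.3 CPM, and both overlapped. *Bicd1*, which fell under the low-count filter, showed 3 and 1 counts for WT against 8 and 7.

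Beyond *Rab6b*, the level of the family as a whole overlapped between genotypes. Without *Rab6b* the 58 other Rabs summed to 2698 and 2622 CPM in the WT libraries and 2865 and 2684 CPM in those labelled cKO. *Rab6b* itself made up 0.204% and 0.179% of all Rab counts in WT cells against 2.60% and 2.12%.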

How the data were processed

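Total RNA of 4 libraries was prepared with the NEBNext Ultra kit, which does not mark strand, and per the labels read to 50 bases. The authors aligned reads to mm10 with HISAT2 2.1.0 and deposited raw counts per gene symbol from HTSeq (0.11.1 in the submitters' processing notes). Annotation and strand setting are not given in the sources used here, so reads of overlapping genes on opposite strands may not be told apart. HTSeq's 5 summary lines, 66.8% to 70.5% of all lines' counts, were left out.

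Counts were tested in R 4.3.3 with edgeR 4.0.16 (filterByExpr, TMM factors 0.981 to 1.02, quasi-likelihood F test on genotype label, two-sided, Benjamini-Hochberg over 12403 genes, call at adjusted p under 0.05). CPM uses TMM-scaled library sizes, and CPM per kb divides by the exonic length in GENCODE M21. Paralogue ratios add 0.5 CPM. Python 3.11.15 drew the plots with matplotlib 3.10.9. The scripts were tested on simulated counts. Intervals cover counting error and the spread between libraries.

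The members and lists were chosen with earlier results of these data known. Named were *Rab6a* and *Rab6b*, tested paralogues of a pair, the 3 highest members per kb in WT, members at an unadjusted p under 0.05, up to 6 called regulators in each direction and the tested Rab6 partners. Other genes named (*St6galnac2*, *Rab29*, neighbours, marker genes, *Bicd1* and *Rab39b*) were picked after their values were seen. Members with no count in any library were all named. *Rab7*, *Rab7b*, *Rab9* and *Rab25* were named for their role, pair or chromosome, without a test result. DESeq2 1.42.0, other scalings and filters, depth and left-out libraries were tried as alternatives. Same-numbered libraries did not deviate together (correlation 0.0643).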

Additional observations from a re-analysis of the deposited data

How the results depend on the processing

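The log2 fold change of *Rab6b* lay between 3.49 and 3.88 in every alternative run. Its ratio to *Rab6a* rose by 3.10 with a prior count of 2 in place of 0.5. The number of genes called, 533, became 1367 with no low-count filter, 153 at an adjusted p under 0.01 and 174 to 1583 with a library left out. Calls among Rab members went from 1 to 3 with no low-count filter and to 1 to 4 with a library left out, and without *Rab6b* from 0 to 2 and to 0 to 3. Calls among regulators went from 9 to 1 at an adjusted p under 0.01 and to 1 to 18 with a library left out. A fit without a library assumes that the lone library of its genotype varies like the others. With a replicate block, 1165 genes were called, 3 Rab members (with *Rab27a* and *Rab43*) and 2 without *Rab6b*, but the numbers did not pair the samples, and the causes of these changes were not tested. Of 154 alternative values of single genes, 8 newly passed the threshold, 15 no longer did and 0 reversed, and of 72 of the 12 other paralogue pairs 2 moved by more than the spread. The adjusted p ran from 0.00281 to 0.535 for *Rab27a*, 0.0119 to 0.410 for *Rab43*, 0.00988 to 0.792 for *Rab8b*, 0.0623 to 0.666 for *Rab22a* and 0.279 to 0.912 for *Rab6a*. For the paralogue pairs, leaving out 1 library cannot move a difference by more than the spread used there, the pooled SD within genotypes. Those values could thus not count as moved. With 2 libraries against 2, genes at a few counts had too little depth for a test.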
